A study of Homo sapiens with 2 samples.

Results

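The 35 genes described here belong to the integrated stress response that runs through the transcription factor ATF4 and to its branch of amino acid supply. They were taken from a list of symbols and matched in the feature lists of both libraries. All 35 were found, SARS and WARS under these older symbols. By role they were 5 regulators, 8 genes on the CHOP side, 11 genes of amino acid and one-carbon synthesis, 5 amino acid transporters, 3 genes of tRNA charging and export, and 3 secreted factors or receptors. The roles were assigned with earlier results of these data known.

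The integrated stress response is a signalling pathway in which one of several kinases phosphorylates the translation factor eIF2. General protein synthesis is thereby slowed while translation of the transcription factor ATF4 increases. ATF4 pairs with C/EBP proteins and binds composite C/EBP-ATF response elements in genes that supply the cell with amino acids, and under sustained stress it raises DDIT3, which encodes CHOP, and its partners. Because ATF4 is controlled mainly at translation, its mRNA level is not a measure of its protein. In liver the pathway is known for its link to amino acid shortage, mitochondrial stress and stress of the endoplasmic reticulum.

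The cells were HepaRG, an established human hepatic cell line bought as terminally differentiated cells and cultured for 7 days before treatment. Both libraries came from cultures that received 0.1% DMSO as the vehicle for 24 h, with 10000 cells loaded for each 10x Genomics 3′ library, so the values describe unstimulated cells and no chemical treatment was compared. Cells were dissociated with trypsin and collagenase in the presence of DTT, actinomycin D and anisomycin, and then fixed. DTT disturbs protein folding, and the other 2 agents stop transcription and translation; the effect of this step on the 35 genes was not tested. Replicate 1 gave 4454 cells and replicate 2 gave 4894 cells after filtering, with medians of 17568 and 10407 UMIs per cell, and 10 cell barcodes occurred in both. The labels give both libraries the same biological replicate number, so the spread between them may be technical and p-values do not describe independent cultures.

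Cells fell into 3 groups by fixed limits. ALB-high cells had at least 50 ALB UMIs per 10000 and numbered 257 in replicate 1 and 357 in replicate 2 (5.77% and 7.29% of the cells). Dividing cells had at least 10 UMIs per 10000 of TOP2A, MKI67 and CENPF together and numbered 1435 and 1606 (32.2% and 32.8%). The remaining cells numbered 2713 and 2881 (60.9% and 58.9%), and 49 and 50 cells that met both limits were left out. Just inside the ALB limit (50 to 60 per 10000) were 18 and 40 ALB-high cells, and just outside it (40 to 50) were 38 and 40 remaining cells. Just inside the dividing limit (10 to 12 per 10000) were 147 and 179 dividing cells, and just outside it (8 to 10) were 163 and 180 remaining cells. ALB, TOP2A, MKI67 and CENPF set the groups and are not results.

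The groups differed in more than these genes. Without ALB, which set the group, the other 16 hepatocyte markers summed to 16430 and 15295 CPM (UMIs scaled to a common total per sample) in ALB-high cells, to 888 and 935 in dividing cells, and to 1460 and 1609 in remaining cells. Summed mesenchymal markers were 92.1 and 120.1 in ALB-high cells, 768 and 771 in dividing cells, and 690.5 and 699.9 in remaining cells. Of 10 mesenchymal markers tested, all 10 were called lower in ALB-high than in remaining cells. In dividing cells 3 of them were called higher and 4 lower than in remaining cells (edgeR, comparison described below). The label calls the cells hepatocytes; only the ALB-high cells had these markers at a high sum. Without TOP2A, MKI67 and CENPF, which set the dividing group, the other 9 proliferation markers summed to 311 and 370.2 CPM in ALB-high cells, 2479 and 2416 in dividing cells, and 707 and 757 in remaining cells. Of these 9, 8 were called higher and 1 lower in dividing than in remaining cells (edgeR). Biliary markers summed to 350.5 and 359 in ALB-high cells, 511 and 518 in dividing cells, and 782 and 794 in remaining cells. The biliary sums hide a split: of 4 biliary markers tested, 2 were called higher and 2 lower in ALB-high than in remaining cells. Their median log2 fold change was 0.21 (edgeR, comparison described below). Endothelial and immune marker sums were under 43 CPM in every group. Of the 6 immune markers 4 were at 0 in ALB-high cells. The 2 immune markers tested were both called higher there than in remaining cells (log2 fold changes 0.49 and 1.26, edgeR). The part of these marker differences in the results was not tested. Median mitochondrial shares were 13.7% in both libraries of ALB-high cells, 7.90% and 8.05% in dividing cells, and 9.16% and 9.38% in remaining cells. Median UMIs per cell were 20256 and 12103 in ALB-high cells, 20834 and 12137 in dividing cells, and 16225 and 9602 in remaining cells.

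The C/EBP-ATF response element is the sequence through which ATF4 dimers bind, so the promoters of the members were searched for TGATGNAAN on both strands. RefSeq promoters of 300 bases, from 250 before to 50 after the annotated start on GRCh38.p14, were matched for 29 of the 35 genes; NUPR1, PSPH, SHMT2, ALDH1L2, PYCR1 and GPT2 were not matched. The motif was present in 6 of the 29 (20.7%) and in 1268 of 35116 promoters of the same length in the whole table (3.61%). The matches are given on the strand of the gene with 10 bases on either side (5 after it in SLC3A2, where the promoter window ends) and the motif in capitals; a match in letters is not shown to be a bound site.
ATF3: aaggtcaggaTGATGGAAGgctgtcatat
CHAC1: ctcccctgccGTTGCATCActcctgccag
ASNS: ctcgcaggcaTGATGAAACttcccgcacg
FGF21: aaacaccaggATTGCATCAgggaggagga
SLC7A1: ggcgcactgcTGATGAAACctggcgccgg
SLC3A2: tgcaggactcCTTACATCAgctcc
The first base of the motif lay 191 bases before the start of ATF3 (promoter chr1:212565157-212565456, plus strand), 210 before CHAC1 (chr15:40953221-40953520, plus), 68 before ASNS (chr7:97872359-97872658, minus) and 55 before FGF21 (chr19:48755274-48755573, plus). In SLC7A1 (chr13:29595639-29595938, minus) and SLC3A2 (chr11:62881449-62881748, plus) it lay 7 and 36 bases after the start. ASNS and SLC7A1 held the same 9 letters. CHAC1, FGF21 and SLC3A2 held the motif on the opposite strand. ATF3, ASNS and SLC7A1 held it on the strand of the gene.

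The levels of the members differed widely. Over all cells, in CPM, NUPR1, a small stress-induced chromatin protein, was highest at 254 (mean of both libraries), followed by CEBPB at 204, the eIF2 kinase EIF2AK4 (GCN2) at 161, DDIT4 at 144 and SLC38A2 at 138. ATF4 stood at 94.3, between SARS at 110 and PHGDH at 86.9. DDIT3 was lower at 22.2, next to ATF3 (22.9), ALDH18A1 (22.4) and CEBPG (22.3). The order is of UMIs counted and not of molecules made, and how fully each gene's transcripts were captured was not tested.

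Several textbook ATF4 targets were near the limit of detection. ASNS, which makes asparagine, had 73 and 63 UMIs in all cells of replicates 1 and 2. MTHFD2, a mitochondrial folate enzyme, had 111 and 76 UMIs. FGF21, a hormone released by stressed liver, had 1 and 5 UMIs, PYCR1, a proline synthesis enzyme, had 2 and 1, and the lipoprotein receptor VLDLR had 20 and 17. PYCR1, FGF21 and VLDLR passed no filter on low counts and were not tested between groups.

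The ASNS count carries a limit of annotation. In GENCODE 29 the transcript AC079781.5 (chr7:97851688-97972985, GRCh38, same strand) covers 1985 of the 4455 exonic bases of ASNS (44.6%), including all 351 bases of its last exon, where a 3′ library reads. AC079781.5 had 2709 and 1874 UMIs, or 32.3 and 33.4 CPM, in the 3 cell groups, against 73 and 62 UMIs for ASNS. Its scaled level was 27.7 and 34.8 CPM in ALB-high cells, 30.9 and 31.0 in dividing cells, and 32.1 and 33.7 in remaining cells. It was not called in either comparison described below (log2 fold change −0.09 with adjusted p = 0.47 in ALB-high cells, and −0.08 with adjusted p = 0.22 in dividing cells, edgeR). How the deposited counts divided reads between the 2 genes was not tested, and AC079781.5 was chosen after its level had been seen. In PYCR1, 14.1% of the exonic bases were shared with MYADML2, which had 0 and 1 UMIs. Of the 35 genes, 4 share exonic bases with another gene on the same strand and 12 with a gene on the opposite strand, among them DDIT3 with MARS; the strand setting of the counting is not given in the sources used here.

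**Figure D1:**
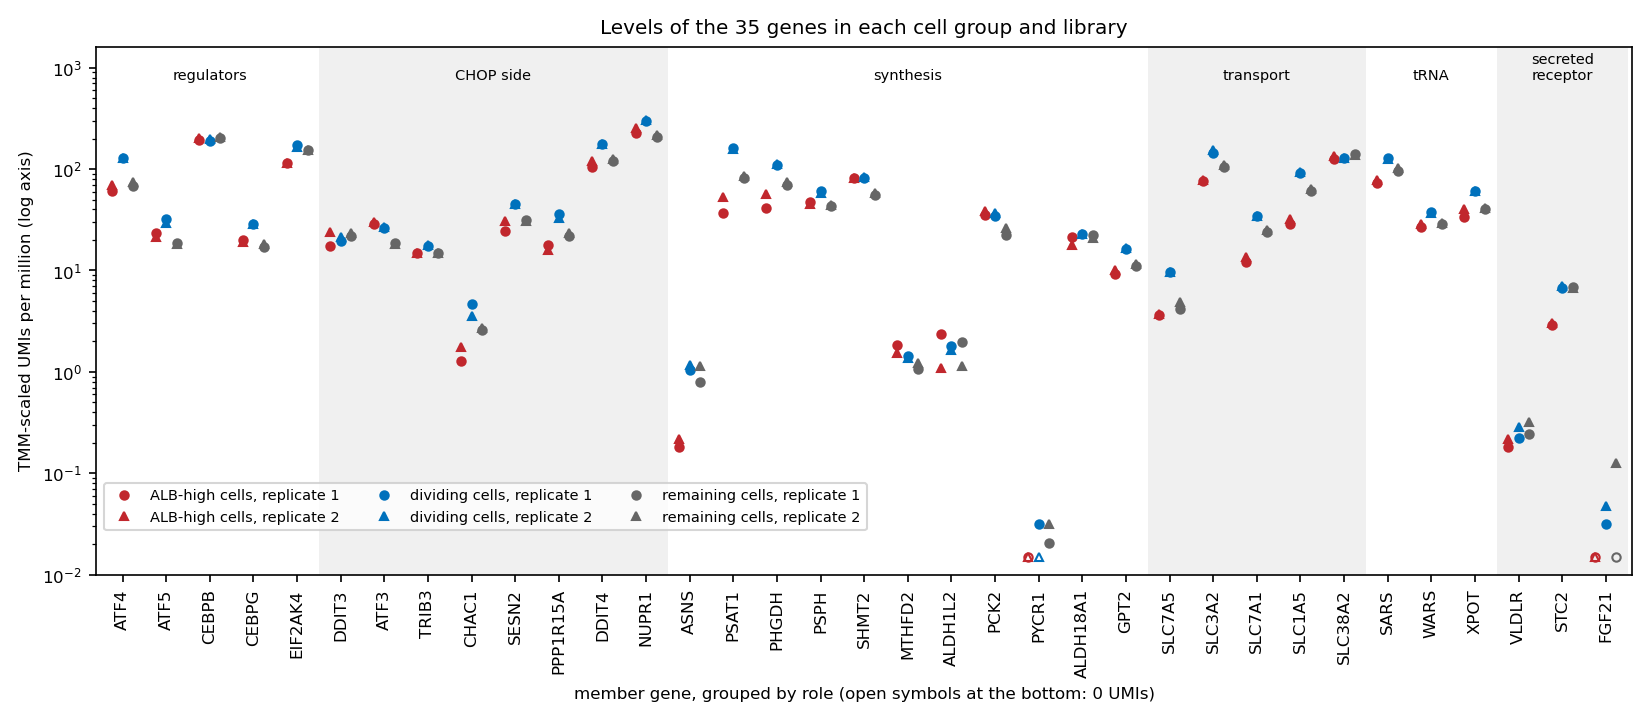
TMM-scaled CPM (log axis) of each of the 35 genes, grouped by role, in ALB-high, dividing and remaining cells; circles are replicate 1, triangles replicate 2, and open symbols at the bottom are counts of 0. PSAT1 stood at 36.6 and 53.1 in ALB-high cells, 162 and 159 in dividing cells, and 81.9 and 85.3 in remaining cells, while DDIT3 lay between 17.5 and 23.9 in all 3 groups.

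Dividing cells were then compared with the remaining cells. Of the 32 members tested, 24 were higher, 2 were lower and 6 were not called, with a median log2 fold change of 0.51. Over all 19143 genes tested, 24.8% were higher and 23.9% lower in dividing cells, with a median of −0.02. A gene is called at an adjusted p under 0.05 in edgeR's quasi-likelihood test, run on counts summed per library and cell group with the library as a block and adjusted by Benjamini-Hochberg over all genes. Levels of the groups are CPM scaled by edgeR's TMM factors, given for replicate 1 and then replicate 2, and each change is a log2 fold change with its SE.

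The 5 regulators had a median log2 fold change of 0.72 in dividing cells. ATF4 itself had 129 and 129.5 CPM in dividing cells, against 67.9 and 74.5 in remaining cells. The groups did not overlap, and the change was 0.87 ± 0.04 (SE; adjusted p = 5.7e-14, edgeR). With 2 values per group, such a gap also occurred in members not called, such as TRIB3 and WARS in ALB-high cells. Its share over all genes was not counted. ATF5, a related factor with a role in mitochondrial stress, and CEBPG, a C/EBP partner of ATF4, rose by 0.76 ± 0.06 and 0.72 ± 0.06. EIF2AK4, which senses uncharged tRNA, rose by 0.13 ± 0.03. CEBPB, a C/EBP factor of hepatocyte differentiation and the acute phase, had 188 and 199 in dividing cells, against 202 and 208 in remaining cells, a change of −0.08 ± 0.03 (adjusted p = 0.017, edgeR). That call was lost without the library block (adjusted p = 0.14, edgeR), at 4000 UMIs (adjusted p = 0.90, edgeR) and with DESeq2 (adjusted p = 0.33). DESeq2 did not call EIF2AK4 either (adjusted p = 0.15).

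On the CHOP side 7 of 8 genes were higher in dividing cells and none was lower (median 0.52), but the gene that names it was not among them. DDIT3 had 19.5 and 21.6 CPM in dividing cells, against 21.7 and 23.3 in remaining cells, and was not called (−0.14 ± 0.06, adjusted p = 0.079, edgeR). With the dividing limit at 20 UMIs per 10000 it was called lower (−0.20, adjusted p = 0.03, edgeR), and likewise without TMM scaling (−0.18, adjusted p = 0.024, edgeR). NUPR1 had 299 and 304 in dividing cells, against 208 and 215 in remaining cells (0.51 ± 0.03). DDIT4, an inhibitor of mTORC1 that also responds to hypoxia and glucocorticoids, had 177 and 175 in dividing cells, against 120.2 and 125 in remaining cells (0.53 ± 0.03). In both genes every dividing value lay above every remaining value, as it did in SESN2, PPP1R15A and CHAC1. DDIT3, which was not called, showed such a gap in the other direction. The share of such gaps over all genes was not counted. SESN2, another mTORC1 inhibitor that senses leucine, had 45.7 and 44.9 in dividing cells, against 31.4 and 30.9 in remaining cells (0.54 ± 0.05). PPP1R15A, the phosphatase subunit GADD34 that reverses eIF2 phosphorylation, had 36.2 and 33.2 in dividing cells, against 22.0 and 23.2 in remaining cells (0.63 ± 0.06). CHAC1, which degrades glutathione, had 4.69 and 3.54 in dividing cells, against 2.57 and 2.74 in remaining cells (0.67 ± 0.16).

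The weakest called change on that side was in TRIB3, a pseudokinase induced by CHOP, at 0.24 ± 0.07 (adjusted p = 0.0057, edgeR). TRIB3 had 17.5 and 17.7 CPM in dividing cells, against 15.0 and 14.8 in remaining cells. ATF3, a stress-induced repressor, had 26.5 and 26.6 in dividing cells, against 18.8 and 18.2 in remaining cells (0.52 ± 0.06). When dividing cells were taken at 20 or more UMIs per 10000, ATF3 and TRIB3 were no longer called (0.07, adjusted p = 0.41, and 0.09, adjusted p = 0.37, edgeR). CHAC1 and TRIB3 were also not called by DESeq2 (adjusted p = 0.19 and 0.25) or after each cell was thinned to 4000 UMIs (adjusted p = 0.28 and 0.30, edgeR).

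Of the 10 synthesis genes tested, 6 were higher in dividing cells, none was lower and 4 were not called (median 0.49). The serine pathway rose at each of its 3 steps. PHGDH, the first step, had 109 and 112 CPM in dividing cells, against 69.8 and 75.3 in remaining cells (0.61 ± 0.04). PSAT1, the second step, had 162 and 159 in dividing cells, against 81.9 and 85.3 in remaining cells, a 1.93-fold level (0.95 ± 0.04, adjusted p = 1.6e-13, edgeR). PSPH, the last step, had 61.1 and 57.7 in dividing cells, against 43.3 and 44.4 in remaining cells (0.45 ± 0.04).

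SHMT2, which moves serine carbon into mitochondrial folate, rose by 0.54 ± 0.04, the mitochondrial carboxykinase PCK2 by 0.56 ± 0.05 and the alanine transaminase GPT2 by 0.55 ± 0.07. ALDH18A1, the entry step of proline synthesis, had 22.8 and 22.7 CPM in dividing cells, against 22.2 and 21.1 in remaining cells, and was not called. MTHFD2, ALDH1L2 and ASNS, each under 2 CPM in both groups, were also not called.

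Of the 5 transporters 4 were higher in dividing cells and 1 was lower (median 0.49). SLC7A5, the light chain of the large neutral amino acid carrier LAT1, changed by 1.10 ± 0.11 (adjusted p = 2.1e-08, edgeR), with 9.61 and 9.69 CPM in dividing cells, against 4.22 and 4.87 in remaining cells. Its heavy chain SLC3A2, which is shared with the cystine carrier xCT, had 146 and 155 in dividing cells, against 104 and 111 in remaining cells (0.49 ± 0.03). The glutamine carrier SLC1A5 rose by 0.57 ± 0.04 and the cationic amino acid carrier SLC7A1 by 0.49 ± 0.05. SLC38A2, the sodium-coupled carrier SNAT2, had 129 and 129 in dividing cells, against 141 and 139 in remaining cells (−0.12 ± 0.03, adjusted p = 0.0046, edgeR). With dividing cells taken at 20 or more UMIs per 10000 its change was 0.0067 (adjusted p = 0.89, edgeR), and DESeq2 did not call it (adjusted p = 0.21).

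All 3 genes of tRNA handling rose in dividing cells: the tRNA exportin XPOT by 0.59 ± 0.05, the seryl-tRNA synthetase SARS by 0.36 ± 0.03 and the tryptophanyl-tRNA synthetase WARS by 0.34 ± 0.05 (median 0.36). The WARS call was lost at 4000 UMIs (adjusted p = 0.058, edgeR). STC2, a secreted glycoprotein, had 6.74 and 6.99 CPM in dividing cells, against 6.94 and 6.72 in remaining cells, and was not called. Dividing cells also held more UMIs per cell, and at a common depth of 4000 UMIs 21 members were still higher and 1 was lower. A change in the share of cells expressing a gene and a change in RNA per cell cannot be told apart in these summed counts. At 4000 UMIs PSAT1 was found in 41.3% and 42.4% of dividing cells, against 24.7% and 27.0% of remaining cells. SLC38A2 was found in 40.7% and 39.2% of dividing cells, against 43.0% and 41.1% of remaining cells. How much each change contributed was not tested.

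**Figure D2:**
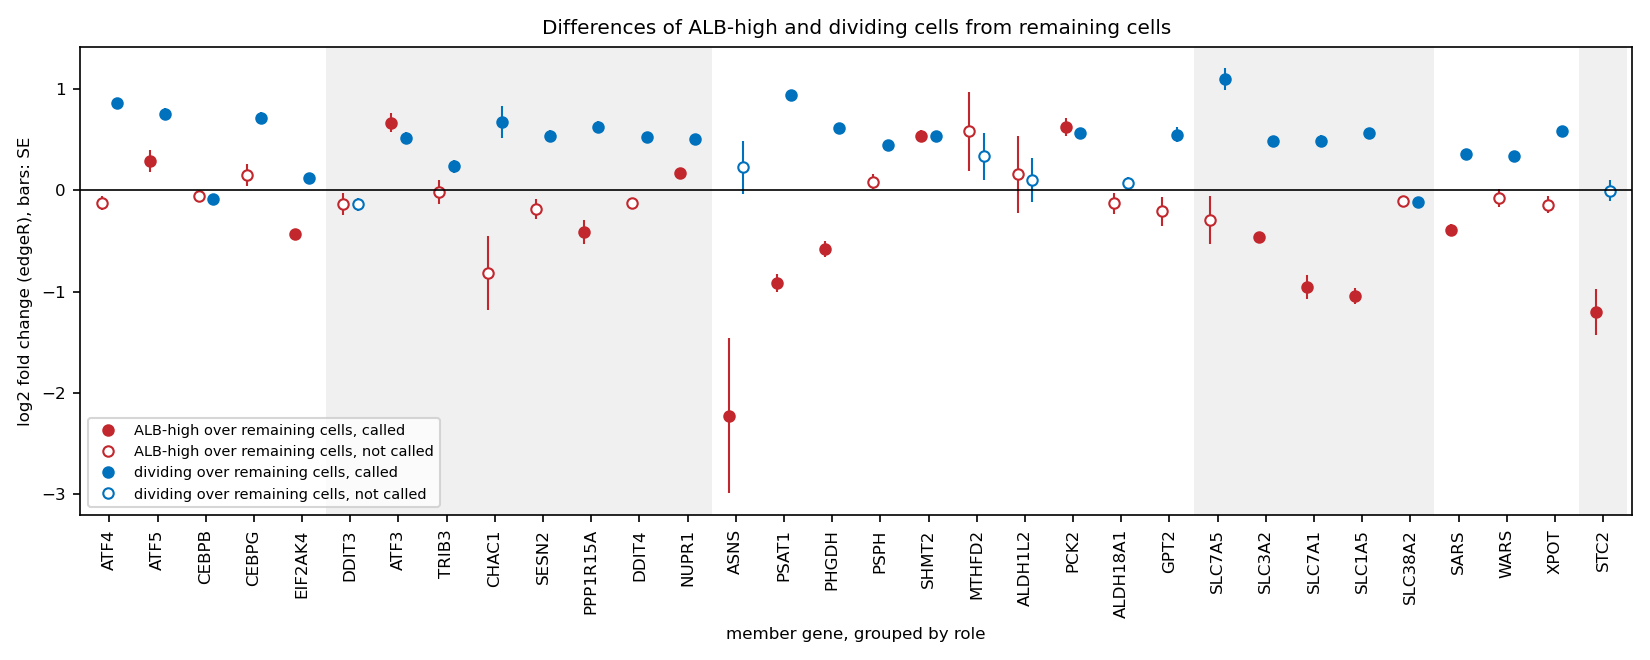
Log2 fold changes (edgeR; bars are SE) of the 32 tested genes, grouped by role in the order used above, in ALB-high over remaining cells (red) and dividing over remaining cells (blue); filled points are called at an adjusted p under 0.05. Most blue points lie near the median of 0.51, while red points range from −2.23 for ASNS to 0.67 for ATF3.

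ALB-high cells, the most hepatocyte-like cells by the marker sums above, were compared with the remaining cells in the same way. Of the 32 members tested, 5 were higher than in remaining cells, 10 were lower and 17 were not called, with a median log2 fold change of −0.13. Over all genes tested 23.9% were higher and 24.2% lower, with a median of −0.02. Both comparisons use the same remaining cells, so their values are given side by side and not set against each other in a test.

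The amino acid carriers were lower or not called in ALB-high cells (3 of 5 lower, median −0.46). SLC1A5 had 28.4 and 32.2 CPM in ALB-high cells, against 60.6 and 63.9 in remaining cells (−1.04 ± 0.08, adjusted p = 4.5e-10, edgeR). SLC7A1 had 12.03 and 13.5 in ALB-high cells, against 24.0 and 25.3 in remaining cells (−0.95 ± 0.12). SLC3A2 had 77.1 and 78.1 in ALB-high cells, against 104 and 111 in remaining cells (−0.46 ± 0.05). Every ALB-high value of these 3 genes lay below every remaining value. Gaps between the groups also occurred in members not called, such as PSPH, and their share over all genes was not counted. SLC7A5 (−0.29 ± 0.24) and SLC38A2 (−0.10 ± 0.05) were not called. SLC38A2 was called lower in 4 alternatives: without a filter on low counts (−0.16), with the dividing limit at 5 (−0.13), with cells meeting both rules counted as ALB-high (−0.16) and without TMM scaling (−0.25).

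Synthesis genes divided into 3 lower, 2 higher and 5 not called in ALB-high cells (median −0.02). Cytosolic serine synthesis was lower at its first and second steps and not at its last. PSAT1 had 36.6 and 53.1 CPM in ALB-high cells, against 81.9 and 85.3 in remaining cells (−0.92 ± 0.09, adjusted p = 1.8e-08, edgeR). PHGDH had 41.2 and 57.0 in ALB-high cells, against 69.8 and 75.3 in remaining cells (−0.58 ± 0.08). PSPH had 47.2 and 45.7 in ALB-high cells, against 43.3 and 44.4 in remaining cells, and was not called (0.09 ± 0.08).

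The higher synthesis genes, SHMT2 and PCK2, encode mitochondrial enzymes. Both were also higher in dividing cells than in remaining cells (0.54 ± 0.04 and 0.56 ± 0.05). SHMT2 had 82.0 and 82.4 CPM in ALB-high cells, against 55.2 and 58.0 in remaining cells (0.54 ± 0.06), and PCK2 rose by 0.63 ± 0.09. ASNS had 1 UMI in each library of ALB-high cells, against 39 and 36 in remaining cells. It was called lower (adjusted p = 0.021, edgeR), but the ratios of its rates were 0.207 (95% counting interval 0.00511 to 1.22) and 0.172 (0.00425 to 1.02). DESeq2 did not call it (adjusted p = 0.14), nor did edgeR with the dividing limit at 5 (adjusted p = 0.070) or at no more than 15% mitochondrial UMIs (adjusted p = 0.097).

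On the CHOP side 2 of 8 genes were higher in ALB-high cells, 1 was lower and 5 were not called (median −0.13). ATF3 had 28.8 and 30.2 CPM in ALB-high cells, against 18.8 and 18.2 in remaining cells (0.67 ± 0.10, adjusted p = 5.1e-06, edgeR). NUPR1 had 227 and 253 in ALB-high cells, against 208 and 215 in remaining cells (0.18 ± 0.04), and PPP1R15A fell by 0.41 ± 0.12 on the log2 scale. DDIT3 had 17.5 and 23.9 in ALB-high cells, against 21.7 and 23.3 in remaining cells, so the groups overlapped (−0.14 ± 0.11, adjusted p = 0.32, edgeR). TRIB3, at 14.8 in both ALB-high libraries, against 15.0 and 14.8 in remaining cells, was not called. DDIT4 had 106 and 119 in ALB-high cells, against 120.2 and 125 in remaining cells, without overlap (−0.13 ± 0.05, adjusted p = 0.051, edgeR). CHAC1 had 1.28 and 1.74 in ALB-high cells, against 2.57 and 2.74 in remaining cells (−0.82 ± 0.37, adjusted p = 0.074, edgeR), and SESN2 24.4 and 31.1 in ALB-high cells, against 31.4 and 30.9 in remaining cells (−0.18 ± 0.10). None of these 3 passed the test, but the calls depend on the settings: DDIT4 was called lower in 7 alternatives (−0.27 to −0.13), CHAC1 in 6 (−2.60 to −0.88, the lowest with the ALB limit at 100) and SESN2 in 3 (−0.37 to −0.24).

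ATF4 was not called in ALB-high cells, with 61.4 and 69.1 CPM, against 67.9 and 74.5 in remaining cells (−0.13 ± 0.07, adjusted p = 0.13, edgeR). It was called lower without a filter on low counts (−0.19), with the ALB limit at 100 (−0.21), with the dividing limit at 20 (−0.25), at no more than 15% mitochondrial UMIs (−0.20) and without TMM scaling (−0.27). EIF2AK4 had 115 and 116 in ALB-high cells, against 156 and 155 in remaining cells (−0.43 ± 0.05). ATF5 rose by 0.29 ± 0.10, a call lost in 7 alternatives (0.10 to 0.27), SARS fell by 0.39 ± 0.06, and STC2 fell by 1.20 ± 0.23 on the log2 scale. These values are relative to TMM scaling: scaling by library totals moved all changes in ALB-high cells by a median of −0.14 and gave 3 higher and 21 lower members, with NUPR1 and ATF5 no longer called (0.03, adjusted p = 0.52, and 0.15, adjusted p = 0.25, edgeR). Without a filter on low counts, changes of the genes common to the main fit moved by a median of −0.06. With at most 15% mitochondrial UMIs per cell there were 4 higher and 10 lower members, and at 4000 UMIs per cell 4 higher and 7 lower. Of the 17 members not called, 11 were called lower in at least 1 alternative. Beside those above these were CEBPB and XPOT (3 alternatives each), GPT2 (2), and ALDH18A1, DDIT3 and WARS (1 each, without TMM scaling).

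Other genes of the pathway, from lists of fixed membership, were counted in the same fits. Of 12 other tRNA synthetase genes called in dividing cells, out of 18, all were higher (median over the 18 of 0.18), with MARS at 0.70 ± 0.05, YARS at 0.62 ± 0.05, GARS at 0.51 ± 0.03 and AARS at 0.49 ± 0.05. In ALB-high cells 3 of the 18 were higher and 8 lower (median −0.12), with QARS at 0.62 ± 0.06, EPRS at −0.56 ± 0.05, MARS at −0.49 ± 0.10 and GARS at −0.46 ± 0.06.

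Of 24 other ATF4 targets, 13 were higher and 6 lower in dividing cells (median 0.13). They included the glycine carrier SLC6A9 (1.20 ± 0.23), the cystine carrier SLC7A11 (0.93 ± 0.04), the folate enzyme MTHFD1L (0.58 ± 0.04) and the translation repressor EIF4EBP1 (0.47 ± 0.03). In ALB-high cells 11 of the 24 were higher and 7 lower (median 0.12), led by SHMT1 (1.39 ± 0.07), SLC43A1 (1.26 ± 0.12), CTH (1.11 ± 0.15) and HERPUD1 (1.04 ± 0.05). SHMT1 is a cytosolic folate enzyme, SLC43A1 a neutral amino acid carrier, CTH the last enzyme of transsulfuration and HERPUD1 a factor of protein disposal at the endoplasmic reticulum.

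A further list held eIF2 kinases, eIF2 subunits, their exchange and phosphatase factors, and related genes. Of 17, 7 were higher and none was lower in dividing cells (median 0.10). The eIF2 subunits EIF2S2 and EIF2S1 stood at 0.38 ± 0.03 and 0.18 ± 0.05, and the kinase EIF2AK3 (PERK) at 0.18 ± 0.06. EIF2A, which is not a subunit of eIF2, stood at 0.14 ± 0.04. In ALB-high cells 3 were higher and 6 lower (median 0.03), with the phosphatase subunit PPP1R15B at 0.71 ± 0.09, the kinase EIF2AK2 (PKR) at −0.58 ± 0.07, EIF2B1 at −0.54 ± 0.10 and DELE1, which relays mitochondrial stress, at 0.39 ± 0.09.

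The IRE1 and ATF6 arms of the unfolded protein response run beside the ATF4 arm and are named here for contrast. Of 16 genes, 13 were higher and 2 lower in ALB-high cells (median 0.32). XBP1, the factor spliced by IRE1, had 173 and 154 CPM in ALB-high cells, against 41.2 and 43.8 in remaining cells (1.95 ± 0.06), and the chaperone partner DNAJB9 had 47.6 and 47.0 in ALB-high cells, against 13.2 and 12.8 in remaining cells (1.86 ± 0.09). EDEM1 and HYOU1 rose by 0.95 ± 0.10 and 0.72 ± 0.07. In dividing cells 3 of the 16 were higher and 3 lower (median −0.04), with DNAJB9 at −0.38 ± 0.08, XBP1 at 0.36 ± 0.05, HSPA5 at −0.22 ± 0.03 and ATF6 at 0.21 ± 0.04. These lists were also chosen with earlier results known.

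The next question was whether the genes varied together from cell to cell within a group. Each cell was thinned to 4000 UMIs, and Pearson r was taken over log1p counts in each library alone, for members found in at least 10% of thinned cells of both libraries. This left 21 members in dividing cells and 15 members each in ALB-high and remaining cells; DDIT3, TRIB3 and CHAC1 were under the limit in every group. Cells of a library share its free RNA and reagents, and r is given as a description without a p. Over all pairs of genes above the same limit in remaining cells mean r was 0.000613 and 0.000628.

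PSAT1 and ATF4 stood at the centre of the correlated members in both of the large groups. In dividing cells r between ATF4 and PSAT1 was 0.179 and 0.156 (1406 and 1591 cells), between PSAT1 and PHGDH 0.152 and 0.167, and between ATF4 and NUPR1 0.135 and 0.128. A pair apart from these was CEBPB with DDIT4, at 0.170 and 0.110. In remaining cells r between ATF4 and PSAT1 was 0.147 and 0.143 (2679 and 2818 cells), between ATF4 and SLC1A5 0.144 and 0.134, and between NUPR1 and PSAT1 0.132 and 0.130. The 95th percentile of r over all pairs of genes was 0.0491 and 0.0464 in dividing cells and 0.0395 and 0.0385 in remaining cells.

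The synthesis and transport genes were then set against the CHOP side. In dividing cells mean r was 0.00652 and 0.0310 within the CHOP side (10 pairs), 0.0558 and 0.0497 within synthesis and transport (36 pairs), and 0.0247 and 0.0270 between them (45 pairs). These values were higher at greater depth: over both libraries the 3 means were 0.0517, 0.0904 and 0.0551 at 8000 UMIs and 0.0743, 0.160 and 0.0899 without thinning. In remaining cells it was 0.0322 and 0.0394 within the CHOP side (3 pairs), 0.0501 and 0.0445 within synthesis and transport (21 pairs), and 0.0384 and 0.0344 between them (21 pairs). At the main thinning depth the mean between both sides thus lay near the means within each side in remaining cells. The mean within the CHOP side rests on only 3 pairs. At greater depth the mean between both sides lay below both others. Over both libraries the 3 means in remaining cells were 0.0770, 0.0796 and 0.0612 at 8000 UMIs and 0.113, 0.113 and 0.0826 without thinning. In ALB-high cells at the main depth, with 256 and 352 cells, the 3 means were 0.0240 and 0.0590, −0.00929 and 0.0238, and −0.00188 and 0.00910. The libraries differed by as much as the values themselves. These ALB-high means rest on 6, 15 and 24 pairs. The genes above the detection limit differ between the groups, so means of different groups are not over the same pairs. PSAT1 (9.77% and 12.8% of thinned cells) and SLC1A5 (10.2% and 9.94%) were under the limit in ALB-high cells and above it in the other groups.

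**Figure D3:**
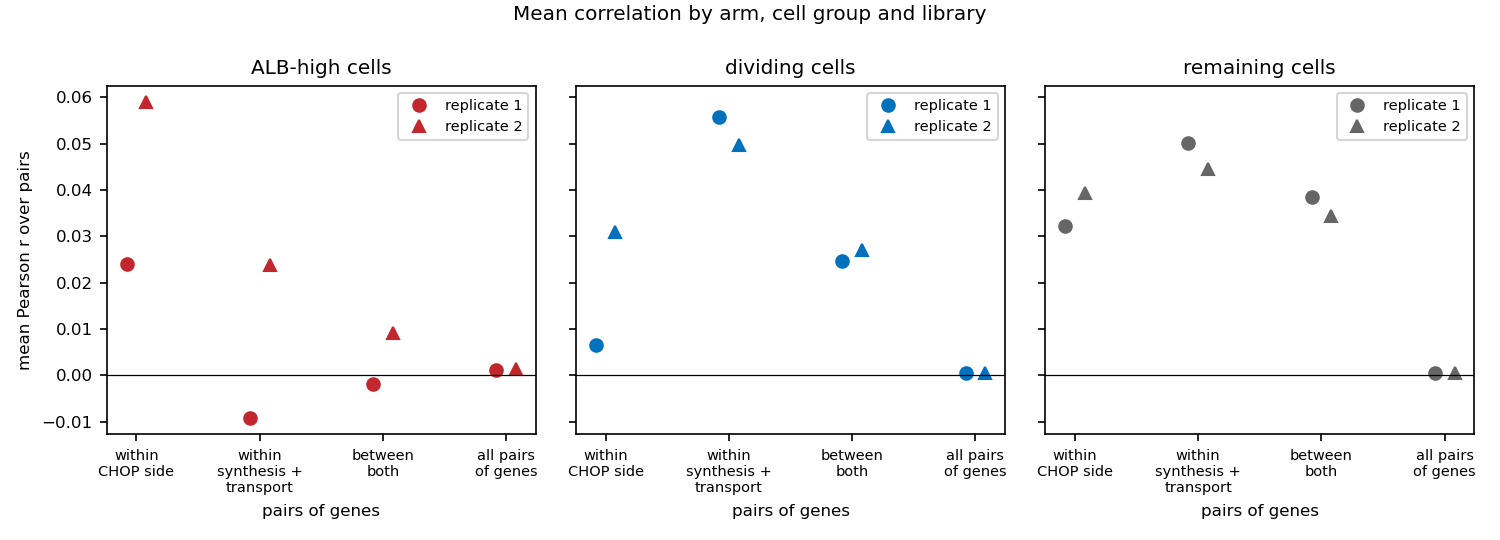
Mean Pearson r over pairs of genes within the CHOP side, within synthesis and transport, between both, and over all pairs of genes found in at least 10% of cells, in ALB-high, dividing and remaining cells; circles are replicate 1 and triangles replicate 2. In dividing cells the means within synthesis and transport, 0.0558 and 0.0497, lay above those between both sides, 0.0247 and 0.0270. The genes above the detection limit differ between the groups.

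Single members differed within the arms. Over remaining cells, r with the mean of the 7 synthesis and transport genes above the limit (each left out of the mean when it was itself compared) was 0.187 and 0.199 for ATF4, which ranked 4 and 1 among 6253 genes. It was 0.149 and 0.133 for NUPR1, a gene of the CHOP side (ranks 12 and 27). SESN2 and DDIT4, of the same side, had 0.0555 and 0.0523, and 0.0548 and 0.0507. SLC38A2 had −0.0232 and −0.00676 with the other carriers and enzymes, and CEBPB had −0.0145 and −0.0118.

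On the CHOP side only SESN2, DDIT4 and NUPR1 were above the detection limit in remaining cells. Correlation with their mean was 0.169 and 0.128 for PSAT1 (ranks 1 and 2 of 6253) and 0.0817 and 0.129 for ATF4 (ranks 29 and 1). SLC38A2 again stood near 0, at −0.00918 and 0.000269. AC079781.5, which overlaps ASNS, had 0.0101 and 0.0101 with the synthesis and transport genes.

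Among genes outside the 35, SLC7A11, EIF4EBP1 and GARS, 3 known ATF4 targets, had the highest r with the synthesis and transport genes over remaining cells, at 0.248 and 0.192, 0.192 and 0.190, and 0.174 and 0.191. The next were H2AFZ, NPM1, TUBA1B, EIF1 and TUBB, genes of chromatin, ribosome assembly, the cytoskeleton and translation start, with r between 0.146 and 0.181. With the CHOP side the highest were GDF15, a stress-induced secreted factor (0.132 and 0.120), EIF1 (0.156 and 0.115), RPLP1, RPL13, SLC7A11, RPS19, RPL8 and RPS27A. After removal of the mitochondrial share, the UMI total and the dividing score, mean r in remaining cells (mean of both libraries) was 0.0371 within synthesis and transport and 0.0335 between both sides.

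**Figure D4:**
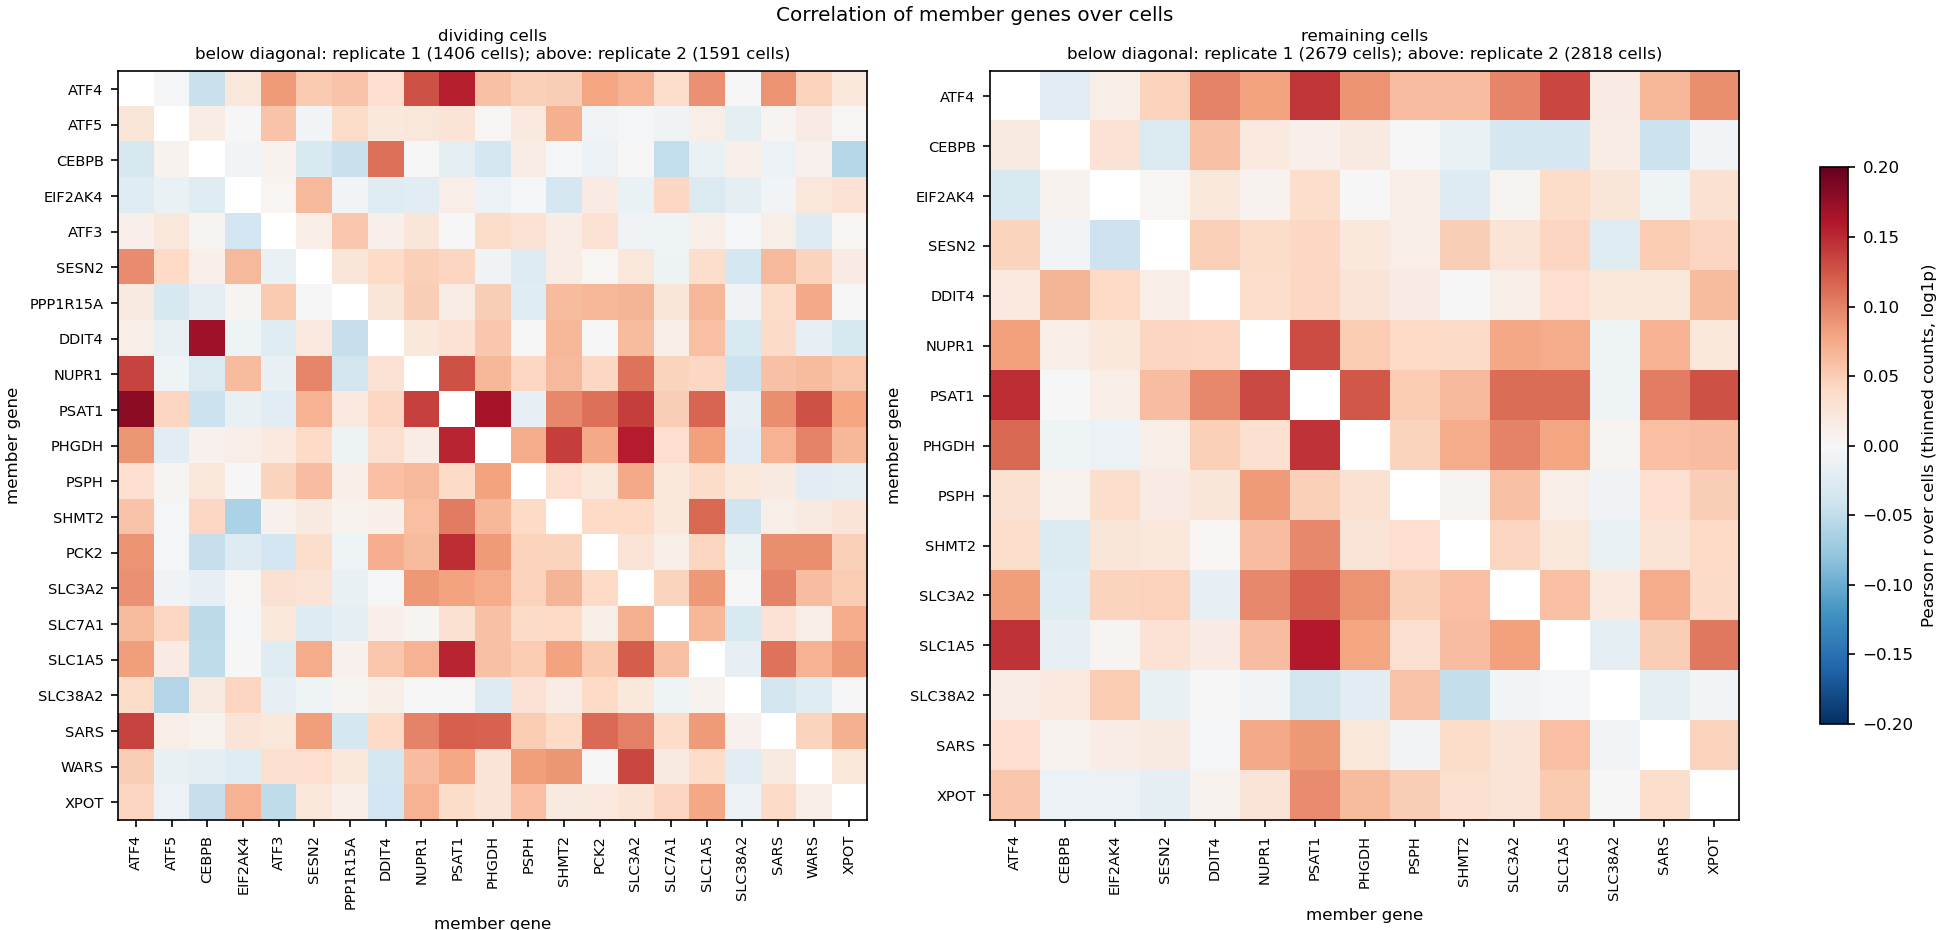
Pearson r over cells for each pair of eligible members in dividing cells (left) and remaining cells (right), with replicate 1 below and replicate 2 above the diagonal and the colour scale limited to ±0.2. The rows of ATF4 and PSAT1 are the most evenly red, up to 0.179 for this pair in dividing cells, and those of CEBPB and SLC38A2 are near white except for CEBPB with DDIT4.

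DDIT3 was too sparse for r but was unevenly spread over cells. In remaining cells its variance over mean (Fano factor) was 1.27 and 1.46, against a median of 1.03 in both libraries for genes of similar detection, exceeding 96.02% and 98.1% of those genes. The top 1% of cells held 25.3% and 26.8% of its thinned UMIs. ATF3 had 1.54 and 1.14, above 98.9% and 89.7% of similar genes, with up to 9 and 3 thinned UMIs in a cell. DDIT4 (1.495 and 1.37) and PSAT1 (1.34 and 1.27) also exceeded 90.2% or more of similar genes in both libraries, while SESN2 (1.06 and 1.10, against medians of 1.04) exceeded 64.9% and 82.5%.

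Cells with at least 1 thinned DDIT3 UMI were therefore compared with cells without one, at equal depth and within each library. This comparison was added after the levels had been seen. There were 202 such cells among the remaining cells of replicate 1 and 216 in replicate 2, and the median ratio over all genes found in at least 10% of cells was 0.991 and 1.00. Intervals are exact 95% intervals of counting error only and do not describe replicates. A single UMI can come from free RNA, which was not removed, and its part was not tested. Cells with a DDIT3 UMI were 7.54% and 7.67% of thinned remaining cells, 6.61% and 8.30% of dividing cells and 5.47% and 10.2% of ALB-high cells, and there was no group known to lack DDIT3 to give a background share.

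The interval lay above 1 in both libraries for 55 of 6253 genes found in at least 10% of remaining cells (0.880%), and below 1 in both for 39. Among the 15 members found as often it lay above 1 in both for 7 (ATF4, DDIT4, NUPR1, PSAT1, SESN2, SHMT2 and SLC3A2) and below 1 for 0. In dividing cells it lay above 1 in both for 18 of 6365 genes (0.283%) and for 4 of 21 members (ATF4, PHGDH, SLC1A5 and SLC3A2). In ALB-high cells, with 256 and 352 thinned cells, it did so for 9 of 5605 genes (0.161%) and for 0 of 15 members. The intervals are too narrow for genes spread more unevenly over cells than counting error, such as DDIT4 and PSAT1 in remaining cells. The shares over all genes were not matched to the members for this spread.

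In remaining cells with a DDIT3 UMI, TRIB3 was 2.47 times (1.60 to 3.70) and 1.51 times (0.868 to 2.47) its level in cells without. CHAC1 was 3.43 times (1.25 to 8.17) and 4.22 times (1.51 to 10.4), and ATF4 1.56 times (1.23 to 1.96) and 1.59 times (1.27 to 1.96). The intervals of CHAC1 and ATF4 lay above 1 in both libraries and that of TRIB3 in replicate 1. The carrier SLC3A2 was 1.57 times (1.30 to 1.88) and 1.51 times (1.25 to 1.81), and SESN2 1.51 times (1.03 to 2.15) and 1.53 times (1.05 to 2.15). SLC38A2 was 0.991 times (0.816 to 1.19) and 0.862 times (0.703 to 1.05).

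Summed over lists, the CHOP side without DDIT3 was 1.47 times (1.34 to 1.61) and 1.40 times (1.28 to 1.54) as high in remaining cells with a DDIT3 UMI as in those without. NUPR1 (208 and 215 CPM in remaining cells) and DDIT4 (120.2 and 125) weigh most in this sum. SESN2, the next, had 31.4 and 30.9. Synthesis and transport together were 1.25 times (1.15 to 1.36) and 1.32 times (1.22 to 1.42) as high. In dividing cells, with 93 and 132 cells holding a DDIT3 UMI, these sums were 1.18 times (1.04 to 1.34) and 1.28 times (1.15 to 1.42) for the CHOP side and 1.37 times (1.24 to 1.51) and 1.29 times (1.18 to 1.40) for synthesis and transport. TRIB3 was 2.27 times (1.16 to 4.10) and 2.19 times (1.24 to 3.65) as high there. The intervals of both sums lay above 1 in both libraries of dividing and of remaining cells. In contrast, SESN2 in dividing cells was 0.882 times (0.486 to 1.48) and 1.39 times (0.923 to 2.02).

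**Figure D5:**
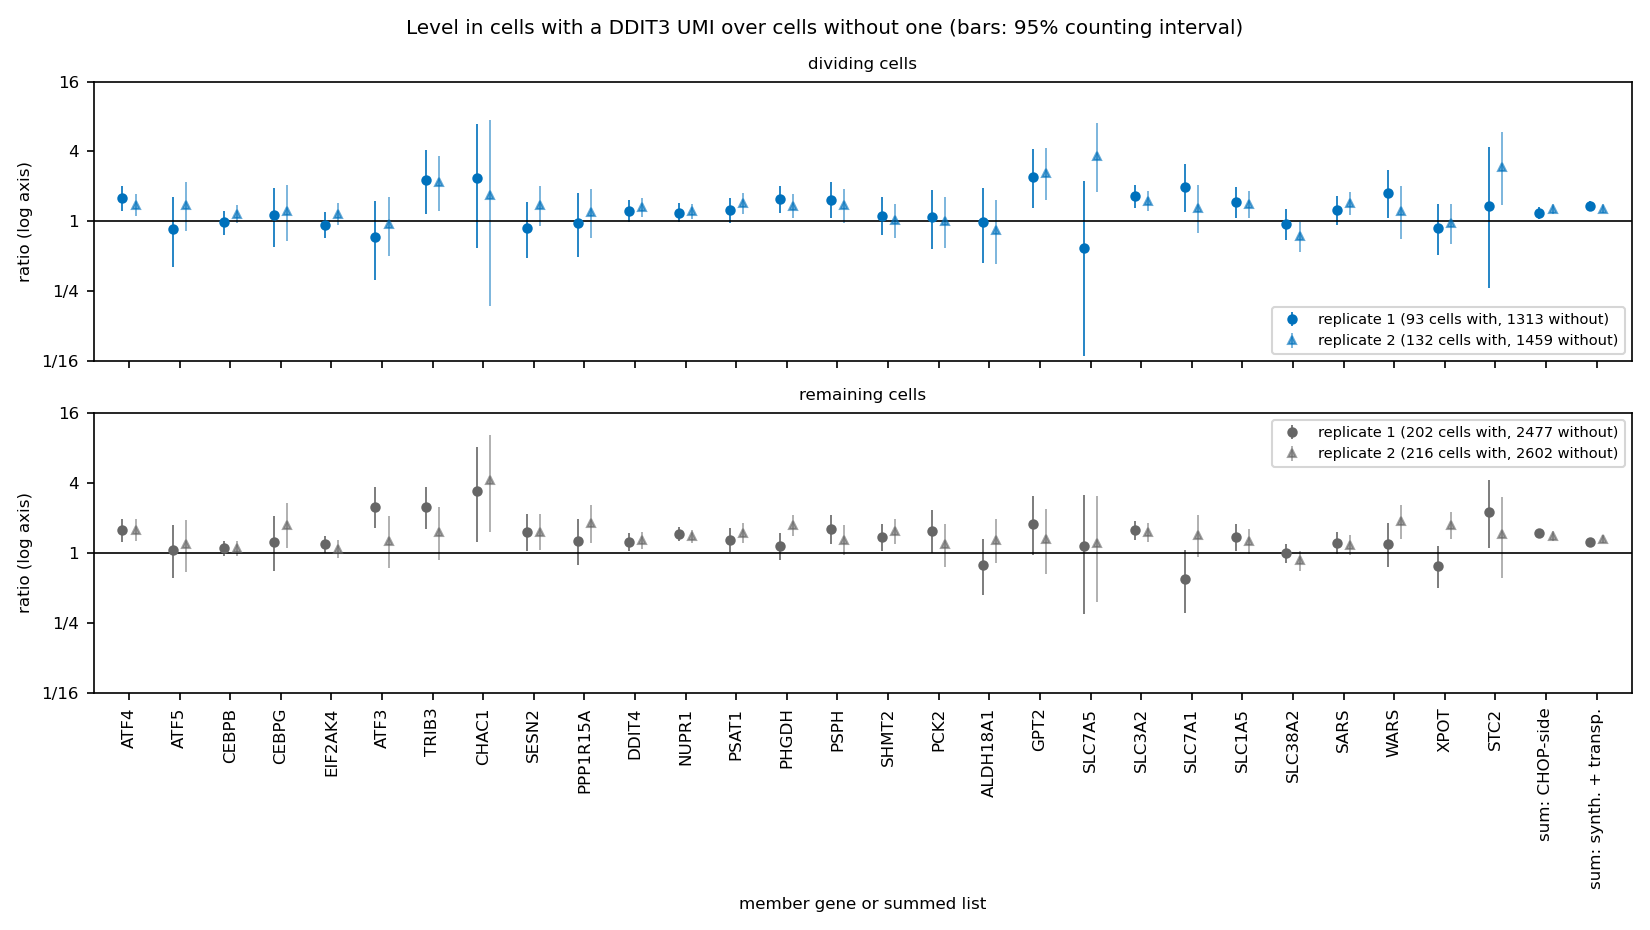
Ratio (log axis) of each member's level in cells with at least 1 thinned DDIT3 UMI to its level in cells without, in dividing cells (top) and remaining cells (bottom), with exact 95% counting intervals; circles are replicate 1 and triangles replicate 2. Members under 2 CPM are left out, and the last 2 positions are the summed CHOP side without DDIT3 and the summed synthesis and transport genes, which lie between 1.18 and 1.47.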

How the data were processed

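Single-cell 3′ libraries were made from vehicle-treated HepaRG cells (2 libraries). The authors deposited raw UMI counts per gene and cell barcode, made with Cell Ranger 7.0.0 per the file headers and with STAR and GRCh38 per the submitters' processing notes. For the annotation release, the handling of introns and strand, and the choice of barcodes, the setting used is not given in the sources used here. Barcodes were dropped below 500 genes, below 1000 UMIs or above 25% mitochondrial UMIs (137 and 104 of 4591 and 4998, with 85475317 and 57246647 UMIs in all). No doublet caller was used: cells meeting both limits were left out, and leaving out the top 4% of UMI totals was an alternative added after seeing the data. Free RNA was not removed.

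Counts were summed per library and cell group and tested with edgeR 4.0.16 (R 4.3.3; filterByExpr, TMM, quasi-likelihood F test, library block, Benjamini-Hochberg). The groups of a library come from the same capture, which is where the pairing comes from. SE is the absolute log2 fold change divided by the square root of F. DESeq2 1.42.0 was an alternative. Cells with at least 4000 UMIs were thinned to 4000 for correlation, Fano factors and cells with a DDIT3 UMI, in Python 3.11.15 with numpy 2.4.6, scipy 1.17.1 and pandas 2.3.3. The count tests were tested on simulated data for ALB-high against remaining cells, with a spread that was set and not taken from these data. Of 50 changed genes at each size, 2 were recovered at 1.25-fold, 32 at 1.5-fold, 44 at 2-fold and 47 at 4-fold. There were 3 false calls among 19009 genes. Some changed genes were missed at every size, so a member that was not called may still differ, also by a large fold. The changed genes were drawn from genes above a set count, which ASNS and MTHFD2 do not reach. Similar detection means within 10% of the gene's own share of cells, or within 0.5 percentage points where that is wider.

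Coordinates are from GENCODE 29 (GRCh38) and promoters from RefSeq (GRCh38.p14). All 35 members were named. Other genes named were the 8 of highest r with each side over remaining cells, by the lower of both libraries, and up to 4 called genes of largest change per further list. The members and lists were chosen with earlier results of these data known. AC079781.5 and the pairs named among members were picked after their values were seen. Counting intervals cover counting error only.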

Additional observations from a re-analysis of the deposited data

How the results depend on the processing

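The fits were repeated with DESeq2, other size factors, no filter, other limits, thinned cells and single libraries. In ALB-high cells 10 of the 15 called members kept their call in every fit, and in dividing cells 19 of 26; no called member changed sign in a single library (0 of 30 and 0 of 52 values). The change that turned direction was SLC38A2 in dividing cells, 0.0067 with the limit at 20. Lower members in ALB-high cells numbered 16 without a filter and 21 without TMM (with 3 higher). Over the genes common to the main fit, changes in ALB-high cells moved by a median of −0.06 without a filter and −0.14 without TMM. Lower members in dividing cells numbered 0 with DESeq2, and 1 without the library block, at 4000 UMIs and without the top 4% of UMI totals. Over all genes, thinning left 2699 higher and 2561 lower in ALB-high cells and 2877 lower in dividing cells, and DESeq2 gave 2322 higher and 2038 lower in dividing cells. Without TMM the splits were 3456 higher and 6303 lower in ALB-high cells, against 4574 and 4625 with it, and 4076 and 5307 in dividing cells, against 4752 and 4574. The replicate block changed no other member's call than CEBPB in dividing cells: without it there were 24 higher members there, and 5 higher and 10 lower in ALB-high cells, with 4527 and 4573 genes in ALB-high cells and 4531 and 4373 in dividing cells. ATF5 in ALB-high cells was also not called by DESeq2 (adjusted p = 0.18), nor by edgeR without a filter (adjusted p = 0.12), with the ALB limit at 25 (adjusted p = 0.074), at no more than 15% mitochondrial UMIs (adjusted p = 0.23), without the top 4% of UMI totals (adjusted p = 0.058) or at 4000 UMIs (adjusted p = 0.78); STC2 and PPP1R15A were not at 4000 UMIs (adjusted p = 0.14 and 0.059, edgeR). In remaining cells mean r (both libraries) was 0.0358 within the CHOP side, 0.0473 within synthesis and transport and 0.0364 between them. Without thinning these were 0.113, 0.113 and 0.0826, at 8000 UMIs 0.0770, 0.0796 and 0.0612, and by Spearman 0.0409 and 0.0312 for the last 2. With mitochondrial share, UMI total and dividing score removed they were 0.0371 and 0.0335. Over single libraries the means ran from 0.0322 to 0.0394, from 0.0445 to 0.0501 and from 0.0344 to 0.0384. The cause of these shifts was not tested. FGF21, PYCR1 and VLDLR rest on few UMIs.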

Other observations

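GDF15, SLC7A11 and EIF4EBP1 were among the genes outside the 35 with the highest r with the members over remaining cells, and their levels differed between the groups. GDF15, a secreted factor that acts on appetite, had 70.9 and 80.2 CPM in ALB-high cells and 170.2 and 163 in dividing cells, against 139 and 149.97 in remaining cells. Its log2 fold changes were −0.94 and 0.21, both called by edgeR. SLC7A11 had 46.7 and 39.8 in ALB-high cells and 156 and 156 in dividing cells, against 81.0 and 83.4 in remaining cells. EIF4EBP1 had 69.4 and 81.1 in ALB-high cells and 163 and 168 in dividing cells, against 114 and 126 in remaining cells. All 3 were lower in ALB-high cells and higher in dividing cells in both libraries.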
